A study of Danio rerio with 2 samples.

Results

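The narrow RNA polymerase II (Pol II) peaks that crowded together in early zebrafish embryos are described here by their spacing, score and width. They were chosen by peak position and width from 1 list of Pol II peaks. Peaks of a chromosome were stitched into a cluster where the space between neighbours was 10 kb or less, and peaks under 5 kb wide were taken from clusters of 10 or more peaks on the 24 assembled chromosomes other than chromosome 4. The choice gave 3653 of the 20243 peaks in the list (18.0%), and 23.9% of the 15281 narrow peaks on those 24 chromosomes. They lay in 287 dense clusters, which also held 295 broad peaks of 5 kb or more. Because position and width chose these peaks, and the score comes from the same peak calls, all values below are descriptions without a test.

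The series held 2 samples of untreated wild-type Tübingen embryos at 4 h post-fertilization (hpf), a Pol II immunoprecipitate (antibody 8WG16) and its input chromatin. The input entered the peak calling, but its own values were not used here. Reads of 2 biological replicates were called together, so the list holds no replicate values and no difference below has a replicate check. About 1000 embryos per the labels, freed of chorion and yolk, were used for the immunoprecipitation at this stage, so the peaks average over all cell types of the embryo. The list gives no sequencing depth. A peak's score was taken to be its highest −log10 q times 10, where q is the p-value of enrichment adjusted for multiple testing, and the lowest score in the list was 20.

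Pol II transcribes all protein-coding genes and many non-coding RNA genes. In zebrafish the embryo's own genome becomes active within hours of fertilization, when the cell cycle lengthens and maternal RNA begins to be replaced, a step called zygotic genome activation (ZGA). A narrow Pol II peak is typical of polymerase held near a start site, whereas a broad domain is typical of polymerase spread along a transcribed gene. Antibody 8WG16 recognizes the repeated tail of the largest Pol II subunit, with a preference for its unphosphorylated form. A genome and annotation of the build used (GRCz10) were not used here, so clusters are named by position and no gene is given. Reads that fitted several places equally well had been placed at 1 of them at random by the aligner, so a member inside repeated sequence can hold signal that belongs to another copy.

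Most members were weak. Their median score was 60 (quartiles 43 and 108), the 10th and 90th percentiles were 34 and 343, and the range ran from 21 to 312162. Of the 3653 members, 2639 (72.2%) scored under 100, 143 scored 1000 or more, and the 199 that scored 700 or more fell in 50 of the 287 clusters. Shares of other narrow peaks at 700 or 1000 are not given here, so these 2 counts have no comparison. Members held 24.4% of the summed score of all peaks, but 66.7% of that belonged to a single cluster on chromosome 2, and without it members held 9.69%. Score totals of the members are therefore a statement about that cluster, and medians are used below.

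Members were also short and close together. Their median width was 860 bp (quartiles 500 and 1660 bp, range 300 to 4990 bp), and together they covered 4.50 Mb, or 12.1% of the length covered by all peaks. The 3661 spaces between neighbouring peaks of the clusters had a median of 840 bp (quartiles 410 and 2100 bp). Spaces under 500 bp made up 31.9% of them (1169), while 7.07% (259) exceeded 5 kb, although the rule allowed spaces up to 10 kb. Between summits, the points of highest signal, of neighbouring members the median distance was 2345 bp (quartiles 1480 and 4180 bp, n = 3366). Summits showed no general lean within the peaks: their place had a median of 0.494 on a scale from 0 at the end with the lower coordinate to 1 at the end with the higher coordinate (quartiles 0.306 and 0.671).

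Compared with narrow peaks in smaller groups on the same chromosomes, members were weaker and wider than isolated peaks but close to those in clusters of 5 to 9 peaks. The median score was 60 in the members, 62 in 4220 narrow peaks of clusters of 5 to 9, 76 in 4722 of clusters of 2 to 4, and 86 in 2686 isolated ones. Scores under 100 accounted for 72.2% of members, 69.1% in clusters of 5 to 9, 59.6% in clusters of 2 to 4 and 57.9% of isolated peaks. Width had the opposite order, with medians of 860, 850, 790 and 570 bp, and widths under 500 bp made up 24.97%, 25.3%, 27.3% and 39.3%. The quartiles of score overlapped between all 4 classes (43 to 108, 43 to 122, 45 to 154 and 54 to 157). Cluster size defined the classes, so this order carries no test. Between members and isolated peaks the score order was reversed when only the top 50% of all peaks by score was stitched again. There the ratio of the members' median score to that of isolated peaks was 2.47 in place of 0.698. Only 406 members in 29 clusters were left.

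**Figure D1:**
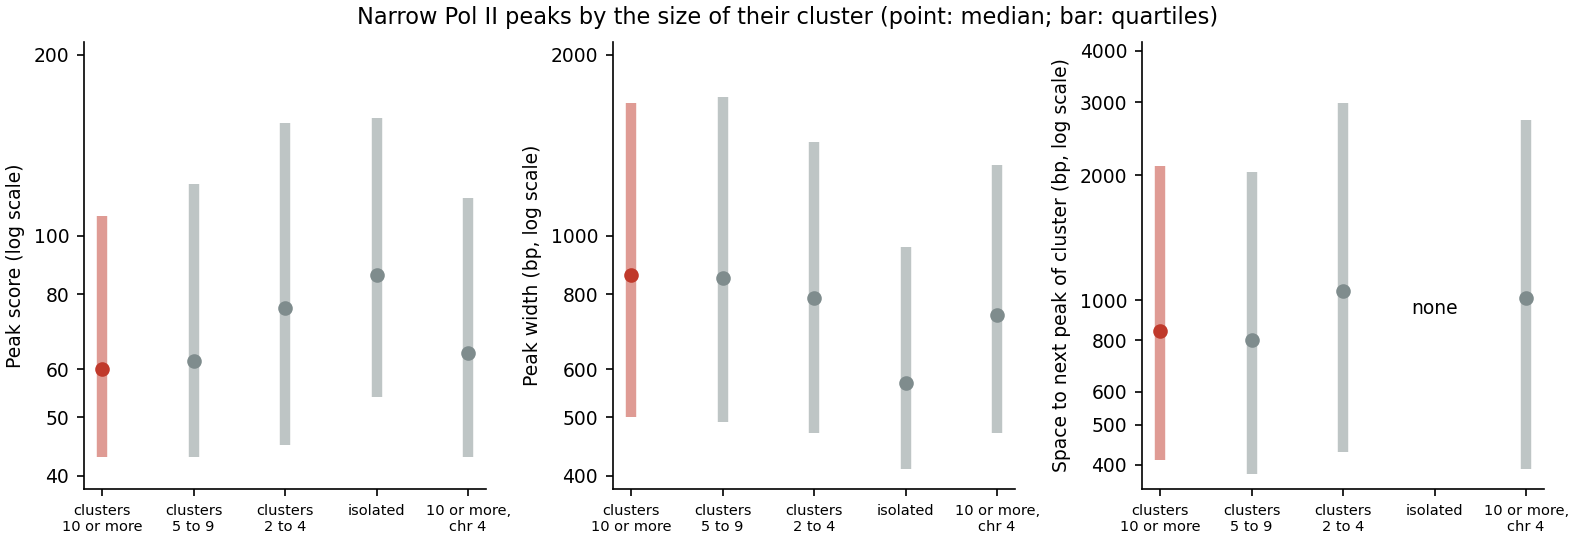
Score, width and space to the next peak of the same cluster (each on a log axis) for narrow Pol II peaks in clusters of 10 or more peaks (red), in clusters of 5 to 9, in clusters of 2 to 4, isolated, and in clusters of 10 or more on chromosome 4, with points at medians and bars from the lower to the upper quartile. The members' median score of 60 lies below the 86 of isolated peaks and their median width of 860 bp above the 570 bp of isolated peaks, with overlapping quartiles of score.

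The edges of the rule did not mark a break in these values. The 71 clusters of exactly 10 peaks held 646 narrow peaks, with medians of 54 for score, 795 bp for width and 790 bp for space. The 80 clusters of exactly 9 peaks, just outside the rule, held 661, with medians of 60 for score, 860 bp for width and 680 bp for space. At the width limit, the 53 members of 4.5 kb or more had a median score of 178, and the 39 peaks from 5 kb to under 5.5 kb in dense clusters one of 160.

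A typical dense cluster was about 40 kb long and contained few strong peaks. Over the 287 clusters the median span was 41.4 kb (quartiles 32.7 and 53.3 kb, range 13.71 to 193.55 kb), with a median of 12 peaks and 11 members, and peaks covered a median of 55.0% of the span (range 12.8% to 96.0%). Clusters with 10 or more members numbered 238, and the other 49 reached 10 peaks only with their broad peaks. The median score of a cluster's members was 57 in the median cluster (quartiles 49 and 75.25), and its highest member scored 290 (quartiles 143 and 538.5). In 31 clusters (10.8%, exact Clopper-Pearson 95% interval 7.46% to 14.98%) no member reached a score of 100. Such intervals cover counting error only.

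Dense clusters occurred on all 24 chromosomes, but unevenly. Chromosome 3 had the most, 26 clusters with 334 members, and chromosome 22 had the highest density, 17 clusters or 4.33 per 10 Mb. On chromosome 25, 14 clusters took in 33.9% of the chromosome's narrow peaks. Chromosome 9 stood at the other end, with 2 clusters, 27 members, 0.353 clusters per 10 Mb and 5.81% of its narrow peaks. Consecutive dense clusters of a chromosome lay a median of 2.46 Mb apart (quartiles 0.945 and 5.96 Mb, n = 263), and 72 of these distances were under 1 Mb and 10 under 100 kb.

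Clusters with a broad peak were more fully covered by peaks, while their members lay about as far apart as in clusters without one. The higher coverage is at least partly built in, since a broad peak itself adds 5 kb or more of covered length. Clusters with at least 1 broad peak numbered 178 (62.0%, exact 95% interval 56.1% to 67.7%) and those without numbered 109. Peaks covered a median of 63.4% of the span with a broad peak and 44.8% without, and the median space between all neighbouring peaks was 732.5 bp with and 890 bp without. Between member summits the median distance was 2290 bp with and 2225 bp without. The coefficient of variation (CV, the SD over the mean) of the summit distances was 0.857 with and 0.617 without, and part of this gap is built in, since 2 members on either side of a broad peak are at least 5 kb apart. For the spaces between all peaks the CV was close in both, 0.975 with and 0.935 without. The median member score was 57 with and 57.5 without a broad peak, so the clusters were close to each other in this measure.

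Members that bordered a broad peak were stronger and wider than others of the same clusters. The 378 bordering members had a median score of 86 (quartiles 53.25 and 144.75) and a width of 1290 bp, whereas score was 54 (quartiles 40 and 81) and width 820 bp in the 1793 members of the same clusters that did not border one. Members of clusters without a broad peak (1482) had medians of 67 for score and 820 bp for width. Spaces beside a broad peak had a median of 580 bp (n = 448), against 900 bp between narrow peaks (n = 3213). Whether a bordering member is a split part of the broad domain was not tested. When peaks 500 bp apart or less were merged first, 1350 members in 113 clusters remained under the same rule.

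Among the narrow members alone, scores were spread over the members of most clusters rather than held by a single member. Broad peaks are left out of these measures, and with them included the median evenness given next was 0.833. For score times width it was 0.729. Score is on a log scale and cannot lie below 20, which can raise evenness. Pielou evenness, which is 1 where all members have the same score and falls toward 0 as 1 member takes all, had a median of 0.899 (quartiles 0.839 and 0.957, range 0.262 to 0.995). The highest member held a median of 25.4% of its cluster's summed member score (quartiles 17.9% and 35.6%) and scored 4.17 times the cluster's median member. In 29 of 287 clusters (10.1%, exact 95% interval 6.87% to 14.2%) the highest member held more than 50% of the sum. For 612 clusters of 5 to 9 peaks with 5 or more members the median evenness was 0.868 and the top member held 39.8%, but a share of this kind depends on the number of members.

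Among clusters with 10 or more members, the least even contained 1 strong peak among weak ones. On chromosome 8 (45384731 to 45428420), 1 member scored 8266 and held 87.2% of the sum of 11 members, whose median was 83 (evenness 0.262). On chromosome 10 (187591 to 233330), 1 of 16 members scored 10065 and held 86.1%, with a median of 66.5 (0.268). The same form was seen on chromosome 21 (40350161 to 40389690), where 4705 was 78.4% of the sum of 14 members with a median of 58.5, and on chromosome 3 (1413581 to 1463650), where 5904 was 79.9% of the sum of 11 members with a median of 118. The fifth of this order, on chromosome 23 (27830651 to 27907390), differed in that its highest member, at 2886, held 41.0% of the sum of 23 members (evenness 0.545). In the first 4 of these a single peak thus set the sum of the cluster, and without a broad peak on chromosomes 10, 21 and 3.

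High evenness came in a faint and a strong form. Evenness was 0.95 or more in 88 clusters (30.7%, exact 95% interval 25.4% to 36.4%). In 78 of them the median member score was under 100, as on chromosome 10 (11079781 to 11138650), where 12 members scored 33 to 58 with a median of 40 (evenness 0.990), and on chromosome 23 (22857771 to 22890210), where 10 members scored 27 to 59 (0.989). With broad peaks included, evenness was 0.803 in this chromosome 10 cluster and 0.669 in this chromosome 23 cluster. A score cannot lie below 20, which narrows the range that faint members can take. In the other 10 the median was 100 or more, and these were the same 10 clusters whose members had the most uniform widths, with a CV of width under 0.26, a limit chosen after the values were seen. The match depends on where the limits lie. The chromosome 3 cluster described below (38870851 to 38935540) was just inside both, with an evenness of 0.9504 and a median score of 101, and a cluster on chromosome 17 (49931901 to 49984640), singled out after its values were seen, had a median score of 798 and a CV of width of 0.369 but an evenness of 0.9499. The next lowest CV of width after the 10 was 0.295, and the median cluster had 0.752. Score and width are not independent measures, since both follow from the same q values along the chromosome. Within the 238 clusters with 10 or more members, Spearman's rho between them had a median of 0.687 (quartiles 0.527 and 0.787).

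**Figure D2:**
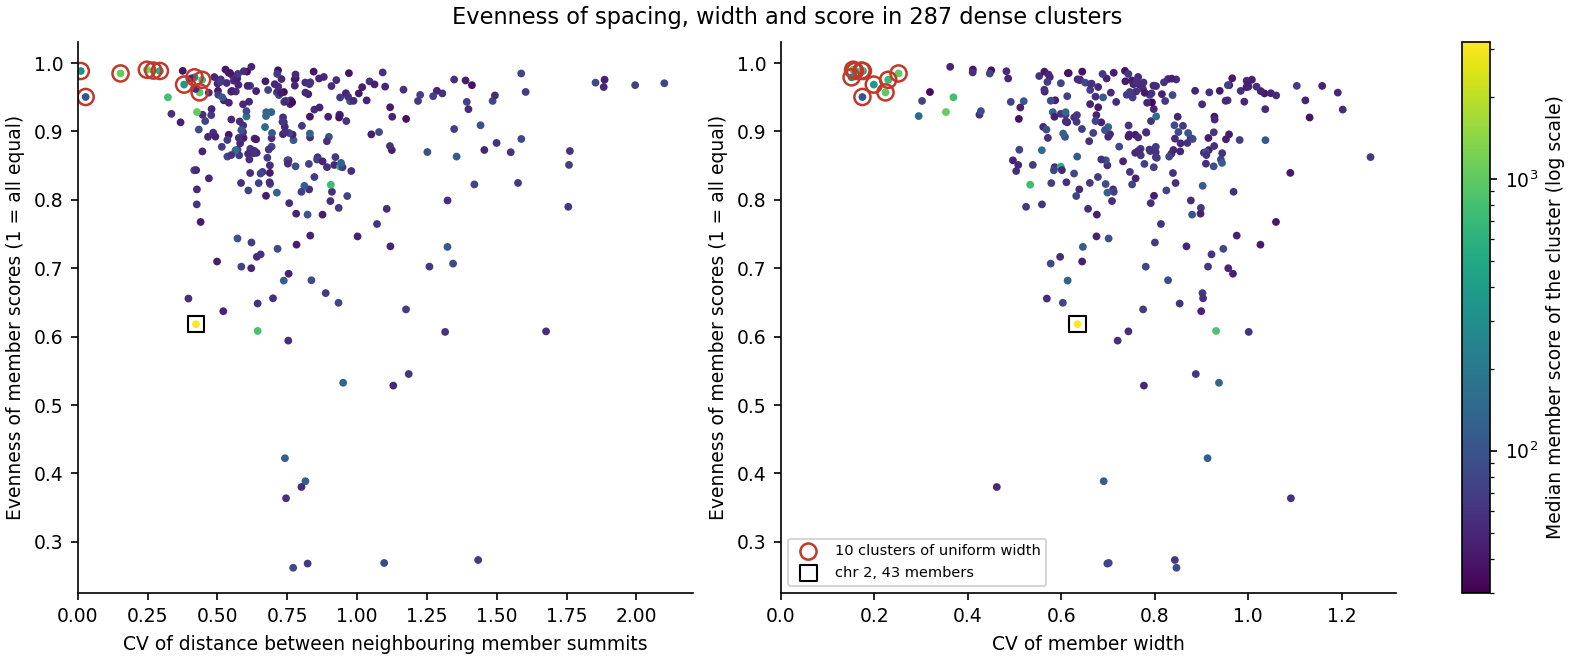
Evenness of member scores in each of the 287 dense clusters against the CV of the distances between neighbouring member summits (left) and against the CV of member width (right), with color for the median member score on a log scale. The 10 clusters of uniform width (red circles) have an evenness of 0.95 or more and a CV of width under 0.26, and the chromosome 2 cluster (black square) has the highest median score, 3167, with an evenness of 0.618.

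The 10 clusters of uniform width held 205 members and no broad peak, and they fell into 3 forms by spacing, width and the place of the summit. Recurring summit distances in some of these clusters had been seen in earlier work on this list, so the distances serve here only as the base for the comparison of width, score and summit place. The first form had summits about 4.2 kb apart, widths near 1.7 kb and scores near 1000. The second had median summit distances of 4505 to 4682.5 bp and widths near 600 bp. On chromosomes 1 and 21, though, only 13 of 39 and 3 of 9 distances lay between 4.5 and 4.8 kb. The third, a single cluster on chromosome 3, had summits about 1.9 kb apart and widths near 440 bp. Whether the random placement of reads with several equal positions made member scores alike in any of these clusters was not tested.

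The largest cluster of the first form lay on chromosome 15 (9808711 to 9938960). It had 31 members with a median summit distance of 4230 bp, and 26 of its 30 distances were within 100 bp of that value. The members had a median width of 1790 bp (quartiles 1735 and 1845 bp) and a median score of 1181 (quartiles 1115.5 and 1258.5, range 64 to 1633), with an evenness of 0.990. The middle 50% of its members thus differed by little in width or score, and its top member held 4.57% of the sum, the lowest share among all 287 clusters. This rank also depends on the number of members, since clusters with few members cannot reach so low a share.

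Another cluster of this form lay on the same chromosome (9659401 to 9723740), with 15 members, a median distance of 4230 bp (12 of 14 within 100 bp), a median width of 1750 bp and a median score of 1144 (332 to 1531). The third on chromosome 15 (7200221 to 7284010) had 20 members, again a median distance of 4230 bp (16 of 19 within 100 bp), a median width of 1750 bp and a median score of 1055.5 (256 to 1248). All 3 chromosome 15 clusters thus shared distance, width and score. On chromosome 8 (30821861 to 30905250) the 17 members were 4240 bp apart in the median, but only 9 of 16 distances lay within 100 bp of it, with a median width of 1660 bp and a lower median score of 720 (164 to 1096). On chromosome 11 (30807951 to 30867690) the 12 members had a median distance of 4270 bp (7 of 11 within 100 bp), a median width of 1720 bp and a median score of 992.5 (36 to 1410).

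The regularity was not complete in any of these clusters. Distances between 4.0 and 4.4 kb made up 27 of 30, 18 of 19 and 12 of 14 in the chromosome 15 clusters (31, 20 and 15 members), 11 of 16 on chromosome 8 and 8 of 11 on chromosome 11. A cluster on chromosome 25 (18683261 to 18779650) had the same median width (1730 bp) and score (1071) with 21 members, a median distance of 4292.5 bp and 10 of 20 distances between 4.0 and 4.4 kb. Its CV of width, 0.353, kept it out of the 10 uniform clusters, and its scores ran from 55 to 2428.

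**Figure D3:**
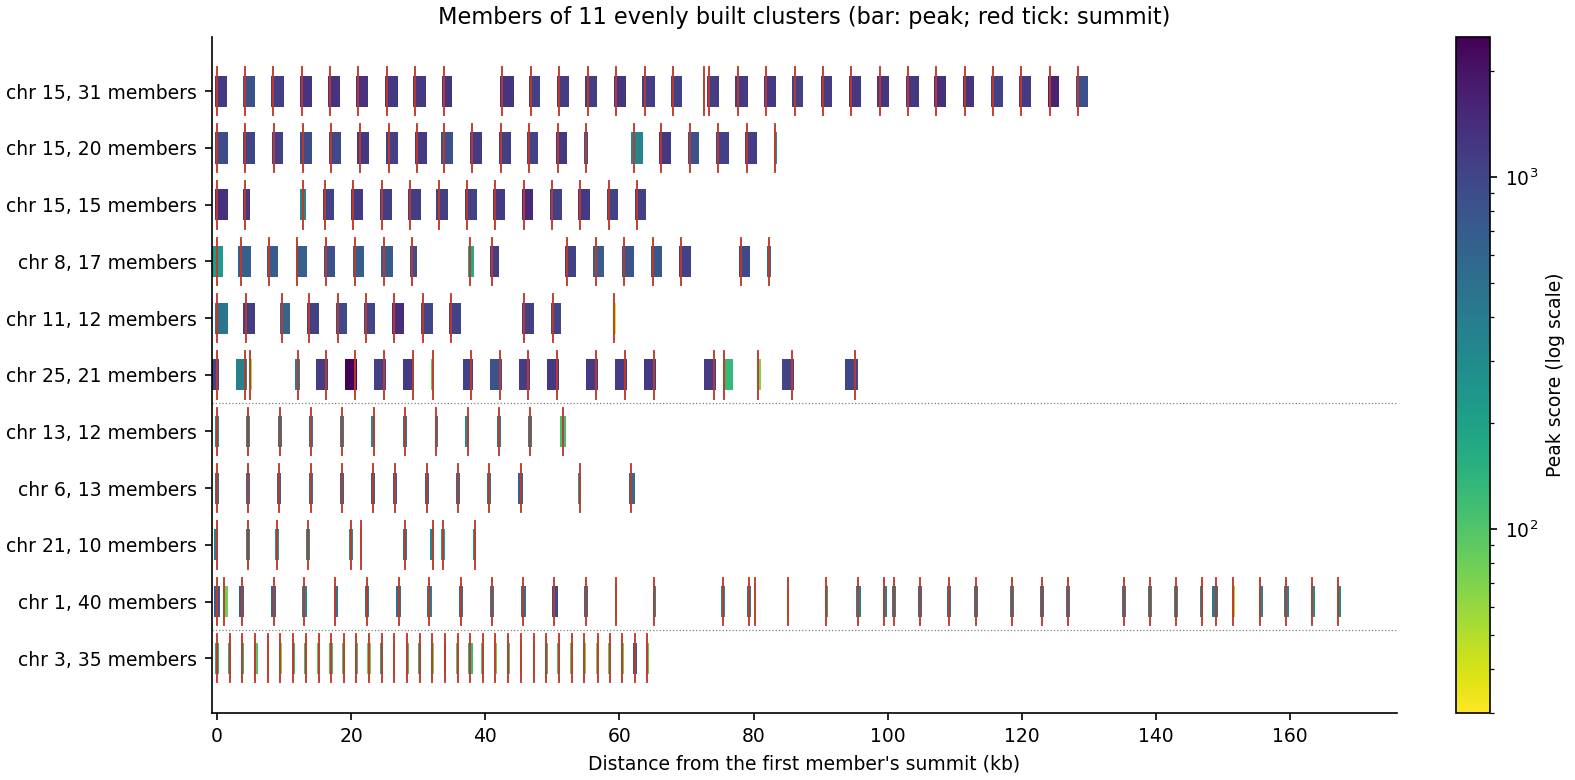
Members of the 10 clusters of uniform width and of the chromosome 25 cluster, drawn to scale as bars by distance in kb from the summit of the first member, with red ticks at summits and color for score on a log scale. Dotted lines part clusters with median distances of about 4.2 kb (top 6), 4505 to 4682.5 bp (next 4) and about 1.9 kb (bottom). The 31 members on chromosome 15 show the regular spacing with a median of 4230 bp.

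In the first form the summit sat near the same end of most members of a cluster. The median summit place was 0.171 in the chromosome 15 cluster of 31 members, 0.180 in that of 20, 0.176 in that of 15, 0.203 on chromosome 8 and 0.174 on chromosome 11, against 0.494 over all members. The summit lay in the lower part of the peak, below 0.5, in 30 of 31, 20 of 20, 14 of 15, 17 of 17 and 12 of 12 members of these clusters. On chromosome 25 the arrangement was mirrored, with a median place of 0.829 and 18 of 21 summits above 0.5. The list gives no strand, and which strand any of these units follows was not determined. Summit place took no part in the rule, but it was examined after the regular clusters had been seen.

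**Figure D4:**
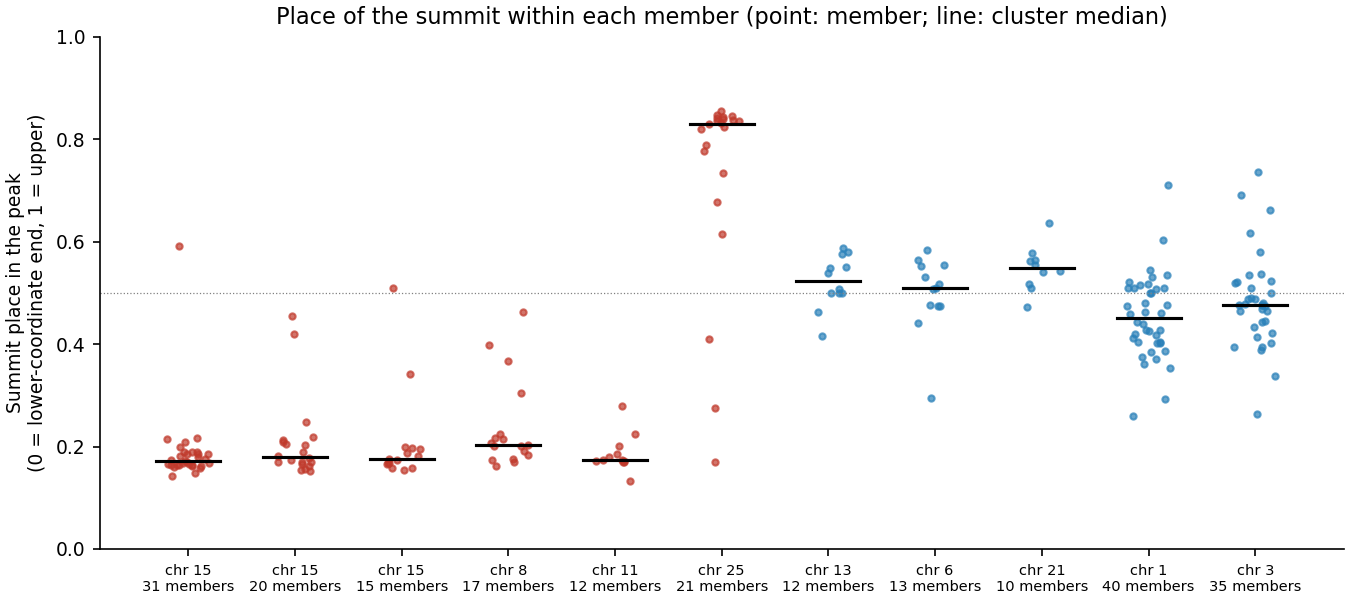
Place of the summit within each member (0 at the lower-coordinate end, 1 at the higher-coordinate end) for 11 clusters, with a point per member and a line at the cluster's median, clusters with distances near 4.2 kb in red and the others in blue. Medians of 0.171 to 0.203 on chromosomes 15, 8 and 11 stand opposite 0.829 on chromosome 25, while medians of the blue clusters lie between 0.451 and 0.549.

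Bounds drawn around the width, score and summit place of this form held few peaks that were not members. Since the bounds were taken from these clusters, the counts are a description and do not show that the form is particular to them. With bounds set after the values were seen (width 1600 to 1900 bp and score 700 to 1700), 98 peaks of the 20243 qualified, of which 82 were members and 16 were not. With the summit also at 0.12 to 0.25 of the width from the nearer end, 85 peaks were left, 80 of them members and 5 not. The 80 were divided among chromosome 15 (25, 15 and 12 in the clusters of 31, 20 and 15 members), chromosome 8 (7), chromosome 11 (8), chromosome 25 (12) and chromosome 18 (1). All 67 on chromosomes 15, 8 and 11 had the summit near the lower end, and all 13 on chromosomes 25 and 18 had it near the upper end.

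The second form had central summits, and it held the most regular cluster of all, although its other clusters varied more in distance. On chromosome 13 (25182691 to 25235000) the 12 members were 4635 to 4815 bp apart, with a CV of summit distance of 0.0108, the lowest of all clusters, and a median width of 525 bp. Their scores, in order along the chromosome, were 275, 303, 367, 385, 323, 312, 364, 311, 298, 354, 325 and 112. The last member stood apart from the other 11, which lay between 275 and 385. Because the members were narrow and far apart, peaks covered only 12.8% of the cluster, the lowest share of all 287.

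The other clusters of the second form were less regular, with CVs of summit distance of 0.294 on chromosome 6, 0.418 on chromosome 21 and 0.381 on chromosome 1. On chromosome 6 (24149261 to 24212000) 13 members had a median distance of 4682.5 bp, with 8 of 12 within 100 bp, a median width of 630 bp and a median score of 541 (224 to 693). On chromosome 21 (20811441 to 20850460) 10 members had a median distance of 4590 bp, with 3 of 9 within 100 bp, a median width of 580 bp and a median score of 271 (115 to 386). Summits were central on chromosomes 13, 6 and 21, with median places of 0.524, 0.509 and 0.549.

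The longest array of this form, 40 members on chromosome 1 (29964471 to 30132470), changed its spacing along its length. The first 19 distances had a median of 4660 bp, and 11 of them lay between 4.5 and 4.8 kb. The last 20 had a median of 3935 bp, and 11 of them lay between 3.8 and 4.1 kb. Its members had a median width of 640 bp, a median score of 374 (49 to 931) and a median summit place of 0.451. The bounds and the point of division were chosen after the distances had been seen.

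The chromosome 3 cluster (38870851 to 38935540) combined a short distance with scores that were low among the uniform-width clusters. Its 35 members had a median summit distance of 1887.5 bp, and all 34 distances lay between 1780 and 2005 bp, 31 of them within 100 bp of the median (CV 0.0281). Members had a median width of 440 bp, a median score of 101 (61 to 671) and a median summit place of 0.477. Peaks covered 25.1% of the cluster. Its median score was the lowest of the 10, but it lay above the upper quartile of cluster medians, 75.25, over the 287 clusters.

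The cluster with the most members and the highest median score, on chromosome 2 (14991401 to 15184950), was neither even in score nor uniform in width. Its 43 members had a median score of 3167, a range of 38 to 312162 and an evenness of 0.618. The first 14 members had a median score of 47454 (2619 to 312162) and held 92.8% of the summed score, while the other 29 had a median of 1567 (38 to 18714). Summit distances had a median of 4732.5 bp, and 4 of 42 lay within 100 bp of it. Some, such as 4620 and 4630 bp, fell just outside this limit. Other distances were longer but also like each other, such as 5720, 5785 and 5830 bp. How often such values recurred was not counted. The CV of the summit distances, 0.423, was near the highest among the uniform-width clusters, 0.445. Width had a median of 1660 bp with a CV of 0.635, against 0.155 in the chromosome 15 cluster of 31 members. Of the 10 highest scoring members, 9 lay in this cluster, and the other, on chromosome 7 (21567891 to 21571400), scored 21809 and was 3510 bp wide. The median summit place of its members was 0.530, against 0.171 in the chromosome 15 cluster of 31 members, but single members varied. The strongest (15006581 to 15008640) had its summit at 0.410 of its width. Members that started at 14995981 and 15011481, with scores of 73165 and 66006, had theirs at 0.168 and 0.164.

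Beside these, the clusters with the most members resembled the average cluster in more copies. On chromosome 14 (51658861 to 51755340) 33 members had a median score of 63, a highest score of 558 and a median summit distance of 2172.5 bp (CV 0.802). On chromosome 8 (51465651 to 51538150) 28 members had a median score of 56, a highest score of 510 and a median distance of 2180 bp (CV 0.743). On chromosome 11 (27669341 to 27766870) 28 members had a median score of 57.5 and a highest score of only 137, with an evenness of 0.976. This cluster also held 3 broad peaks. Its CV of summit distance was 1.35 between members and 0.796 over all its peaks. These 3 were faint although large, and none had the regular spacing of the arrays above.

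The 3 that completed the list of 10 had 23 members each. On chromosome 7 (19804101 to 19857900) their median score was 52 and the highest 217 (evenness 0.943), whereas on chromosome 1 (58407461 to 58484880) the median was 86 and the highest, 2186, held 40.3% of the sum (evenness 0.682). The remaining cluster was the uneven chromosome 23 cluster described above. Number of members and evenness were thus combined in different ways among the largest clusters.

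The highest variation of summit distance was found where broad peaks lay between members, which is partly built in, since these distances run across the broad peaks. Of clusters with 10 or more members, the 5 with the highest CV of summit distance each held 2 or 3 broad peaks: chromosome 3 (47806701 to 47892670, CV 1.995, 13 members), chromosome 3 (23382241 to 23450010, 1.89, 20 members), chromosome 20 (26850141 to 26936840, 1.88, 21 members), chromosome 25 (3168071 to 3236900, 1.76, 14 members) and chromosome 7 (52155021 to 52223320, 1.76, 12 members). With the summits of broad peaks included, the CV of summit distance in these 5 was 1.41, 1.10, 1.47, 1.15 and 1.02. Over the spaces between all peaks the CV of these 5 was 1.31, 1.14, 1.23, 1.43 and 0.880. Some clusters without a broad peak had a higher CV of space, such as 1.80 on chromosome 16 (25096241 to 25128730), a cluster picked after its values were seen. Members of the 5 had median scores of 73, 45.5, 50, 58.5 and 69, against 57 in the median cluster (quartiles 49 and 75.25). Across the 287 clusters the CV of summit distance had a median of 0.743 (quartiles 0.585 and 0.945, 10th percentile 0.468). The regular arrays, at 0.0108 to 0.445, thus lay at the low end, but they were not alone there. Clusters not of uniform width also fell in this range, such as chromosome 10 (25365651 to 25383280, 0.335, median score 58.5). Another was on chromosome 12 (4650931 to 4666640, 0.396, median score 55). The median CV depended on the grouping. It was 0.887 with a 20 kb stitching gap and 0.453, close to the least regular array, with the top 50% of peaks by score, where 29 clusters were left.

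On the log10 scale, members of 1 cluster resembled each other more in score than in width or space, and much of that likeness came from a few clusters. The share of variance that lay between clusters was 45.8% for log10 score, 7.44% for log10 width and 11.3% for log10 space. On ranks in place of log10 values the share for score was 24.6%. Without the chromosome 2 cluster the share for score was 38.7%, without the 10 uniform clusters it was 34.0%, and without both it was 19.2%. For width and space the shares without both were 3.82% and 4.63%. Narrow peaks in clusters of 5 to 9 had 12.4% of the variance of score and 7.48% of that of width between clusters. Outside these 11 clusters, therefore, width and space varied nearly as much within dense clusters as over all their members.

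Score differed with the place of a member within its cluster. The 574 members at the 2 ends of a cluster had a median score of 89 (quartiles 48 and 226.25), the next ones inward (n = 574) had 64.5, and those in places 3, 4 and 5 had 55, 55 and 54. From place 6 inward the median was 60 (n = 860). These medians pool members of all clusters, and only clusters with more members reach the inner places. Values there therefore also depend on which clusters are pooled. Within clusters the median score of the ends was 1.69 times that of the inner members in the median cluster (quartiles 1.08 and 2.52), and it was higher at the ends in 231 of 287 clusters (80.5%). Part of this ratio can be built in, because the median of 2 values is their mean, here on the log10 scale. Scores are skewed upward, so such a mean tends to lie above the median of the inner members. With the first 2 and last 2 members as ends the ratio was 1.36. The same limit applies to the end ratios below. The strongest member was an end in 155 clusters (54.0%, exact 95% interval 48.1% to 59.9%). Ends made up 15.7% of all members pooled. That share is weighted toward clusters with many members, so it is not a baseline for the share of clusters. The median cluster had 11 members, 2 of them ends, but no baseline over clusters was computed.

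Width followed place less closely. Median width was 1005 bp at the ends, then 875, 790, 820 and 820 bp at places 2 to 5 and 850 bp from place 6 inward, pooled in the same way. The ratio of ends to inner members was 1.16 in the median cluster (quartiles 0.774 and 1.76) and above 1 in 61.0% of clusters. In the 109 clusters without a broad peak, where first and last members are also first and last peaks, the 218 ends had medians of 132.5 for score and 1045 bp for width, and the 1264 inner members 63 and 800 bp. The higher scores at the ends were thus also present where no broad peak lay in the cluster.

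Higher ends were not particular to the dense clusters. In 612 clusters of 5 to 9 peaks with 5 or more members the ratio of ends to inner members was 1.77 for score, above 1 in 484 (79.1%), and 1.33 for width, above 1 in 67.2%. In the dense clusters the score ratio was 1.06 when only the top 50% of all peaks by score was stitched again and 1.33 when peaks 500 bp apart or less were merged first. The cause of the difference was not tested.

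**Figure D5:**
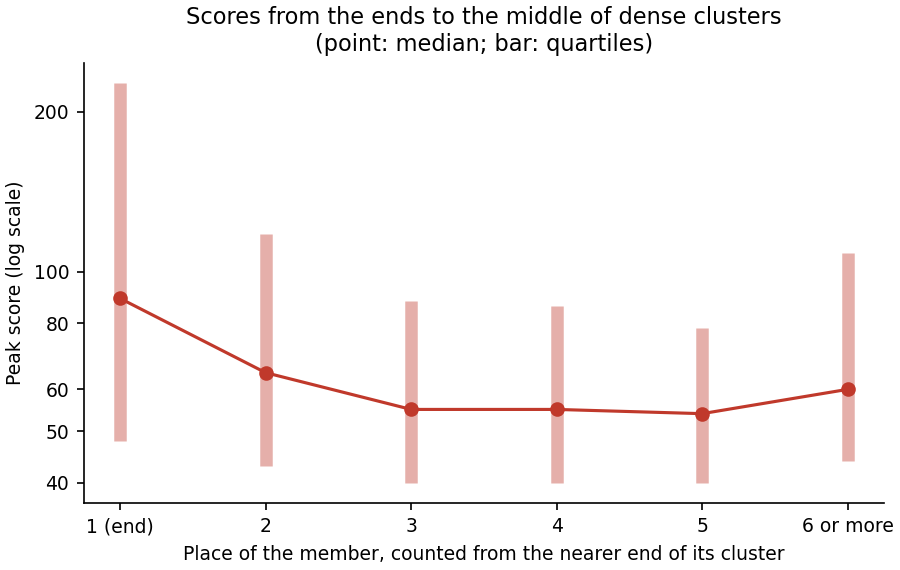
Score of members (log axis) by place counted from the nearer end of their cluster, with points at medians and bars from the lower to the upper quartile. The median is 89 at the ends, 64.5 at the next place, 54 to 55 at places 3 to 5 and 60 from place 6 inward, with overlapping quartiles. Members are pooled over clusters, and only clusters with more members reach the inner places.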

How the data were processed

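The authors aligned reads to build GRCz10 with Novoalign 2.8, placing reads with several equal positions at random, merged technical replicates with SAMtools, and called 1 pooled peak list with MACS2 from 2 biological replicates and 1 input. The authors list a duplicate option (nodup) for the peak calling, but whether it kept or removed duplicate reads was not determined here. That choice can change the highest scores. The authors deposited 1 whole-number score per peak. It was read as 10 times the highest −log10 q, because its lowest value, 20, is 10 times the authors' stated cutoff of 2. It measures significance, not fold enrichment. The list's fields for enrichment, p and q hold 0 and were not used.

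Positions are counted from 1. Spaces run from the end of a peak to the start of the next, and summit distances between neighbouring members. Evenness was Shannon entropy over the log of the number of members. Variance between clusters came from a one-way decomposition corrected for unequal cluster sizes. Ends are the first and last member of a cluster, and end ratios compare medians per cluster. Shares of clusters carry exact Clopper-Pearson 95% intervals, which treat clusters as independent. Python 3.11.15, numpy 2.4.6, pandas 2.3.3, scipy 1.17.1 and matplotlib 3.10.9 were used. Choice of members, variance share, CV of summit distance and end ratio were checked on simulated clusters. All of these had higher ends, so the built-in part of the end ratio was not checked. Evenness was checked only on equal values. Members, lists and limits were chosen with earlier results of these data known. Named regions were the 10 clusters with most members, the 5 highest and 5 lowest in evenness and in CV of summit distance (clusters of 10 or more members), the 5 highest in median score and the 10 highest scoring members. The uniform-width clusters and the chromosome 25 comparison were chosen after their values were seen. Alternatives varied the stitching gap, minimum number of peaks, width limit, peaks used, merging, chromosome 4 and each measure. Comparison with annotation and sequence was not run, since no GRCz10 genome was used here.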

Additional observations from a re-analysis of the deposited data

How the results depend on the processing

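Some values depended on how peaks were grouped and which were used, and where they did the cause was not tested unless the alternative itself starts from fewer peaks. Alternatives without the chromosome 2 cluster, without the uniform-width clusters and with the ends of the whole cluster were chosen after seeing the data. So were those for the comparison with isolated peaks and for the CV of summit distance. The number of members, 3653, was 1535 with at least 15 peaks a cluster, 406 with the top 50% of peaks by score and 1350 with peaks within 500 bp merged. The median summit distance, 2267.5 bp per cluster, was 2162.5 bp with a 5 kb stitching gap, 2397.5 bp with 20 kb, 4260 bp with the top 50%, 3240 bp after merging and 2422.5 bp over all peaks of a cluster, and the space between peaks was 790 bp. Evenness, 0.899, was 0.889 with at least 8 peaks, 0.928 with at least 15, 0.931 for members under 3000 bp, 0.9499 with the top 50%, 0.936 after merging, 0.833 with broad peaks included and 0.729 for score times width. Median width, 860 bp, was 780 bp for members under 3000 bp, 1590 bp with the top 50%, 1010 bp after merging and 820 bp in clusters without a broad peak. The median CV of summit distance, 0.743, was 0.619 with a 5 kb stitching gap, 0.887 with 20 kb and 0.780 with at least 15 peaks. It was 0.811 for members under 3000 bp, 0.453 with the top 50% and 0.662 after merging. The share of score variance between clusters, 45.8%, was 24.6% on ranks. The ratio of ends to inner members, 1.69, was 1.53 for members under 3000 bp, 1.06 with the top 50%, 1.33 after merging and 1.36 with the first 2 and last 2 members as ends. The ratio of the members' median score to that of isolated peaks, 0.698, turned to 2.47 with the top 50%. No paired analysis was possible because the list pools the replicates, so leaving out a replicate was not possible either. Depth and input values were not used, so faint members near the lowest score of 20 cannot be told apart from uneven background.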

Other observations

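Dense clusters of the same kind on chromosome 4 and on unplaced scaffolds were outside the rule. Chromosome 4 had 52 clusters of 10 or more peaks with 651 narrow peaks, whose median score was 64 (quartiles 43 and 115.5), median width 740 bp and median space 1010 bp. Peaks covered a median of 41.3% of a chromosome 4 cluster, and the median evenness was 0.818, against 55.0% and 0.899 in the 287 clusters elsewhere. On unplaced scaffolds 5 such clusters held 66 narrow peaks with a median score of 65.5, a median width of 685 bp and a median evenness of 0.744. No test was made between these groups, which all come from the same list.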
